A study of Mus musculus with 68 samples.

Results

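Gene expression in mouse liver 2 h after an injection of the growth factor Egf was compared with that in liver of untreated mice. Each gene that differed between vehicle-injected and untreated liver was then followed in the Egf mice. The members are all genes of 7 libraries, 4 from the Egf group and 3 from the untreated group, out of the 68 libraries of the series. Of 56748 genes in the count table, 13592 had enough reads in liver to be tested. All mice were wild-type C57BL/6J females aged 10 weeks. The Egf group was given a dose of 1 mg/kg, dissolved in PBS (buffered saline) and injected behind the eye into the retro-orbital sinus under isoflurane, the vehicle group (3 libraries at 2 h) the same kind of injection with 50 to 60 µL of PBS alone, and the untreated group, 3 mice, neither. Organs were flash frozen after a harvest of under 4 minutes, and mice had free access to food. Egf and vehicle liver at 6 h (4 and 3 libraries) served to follow single genes in time. The hour of harvest is not given in the sources used here. Against untreated liver, Egf can therefore not be told apart from injection, anaesthesia and a difference in the hour of harvest. Vehicle injection against untreated liver can likewise not be told apart from anaesthesia and the hour of harvest. A vehicle change, or a gene raised or lowered by vehicle, here names a difference between those groups. Egf against vehicle carries the same injection on each side.

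Egf binds the receptor tyrosine kinase Egfr, which hepatocytes carry in abundance, and the receptor signals through the Ras-MAPK cascade, phosphoinositide 3-kinase and Stat proteins. Immediate early transcription factors are induced first, followed by phosphatases and adaptor proteins that damp the signal. Liver is also an organ in which handling, feeding, glucocorticoids and the hour of the day move many genes of metabolism.

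The 10 libraries of the Egf, vehicle and untreated groups held 14826465 to 19165882 counted reads. Levels are given as CPM, reads per 1e+06 counted reads after scaling between libraries, changes as log2 ratios with their standard error (SE), and a call is an adjusted p under 0.05 from edgeR's quasi-likelihood test with Benjamini-Hochberg adjustment over all genes tested. The labels give 3 mice for the untreated group and do not say outright that each injected library is a mouse of its own, so p values measure only the spread between these libraries, which may be technical. The tissue label was checked on 6 hepatocyte genes, Alb, Apoa1, Ttr, Apob, Fabp1 and Serpina1c. Their summed level was 102900 to 113300 CPM in untreated, 91410 to 99380 in vehicle and 80840 to 109300 in Egf libraries, and none of them was called. The kidney marker sum was 13.3 CPM in vehicle replicate 3, 3.5 in untreated replicate 3 and at or under 0.587 in the other libraries. Marker sums of heart stayed at or under 2.85 CPM, a value also of vehicle replicate 3, with 2.51 in untreated replicate 1. Those of lung stayed at or under 1.05 and those of pancreas at or under 30.5. The adipose sum was 19.2 CPM in Egf replicate 1, 5.15 in Egf replicate 2, 6 in untreated replicate 3 and under 0.5 in the other 7 libraries. Libraries also stood apart in ways that the groups do not define. Vehicle replicate 2 had 0.0126% of its reads on 18S ribosomal RNA against 1.51% to 3.47% in the other 9 libraries.

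Liver of Egf mice differed from untreated liver in 3276 genes, 24.1% of those tested. Of these, 1323 (9.73%) were higher and 1953 (14.4%) lower, and 341 rises and 940 falls were at least 2-fold. The median change over all tested genes was -0.05 on the log2 scale. Vehicle liver differed from untreated liver in 21 genes (0.155%), 10 up (0.0736%) and 11 down (0.0809%), although 2256 genes had an unadjusted p under 0.05. Egf against vehicle gave 533 calls (3.92%), 265 higher (1.95%) and 268 lower (1.97%). Any pair of these comparisons shares 1 group of libraries, so their changes are set side by side and not correlated.

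The calls against untreated liver were uneven in gene length. Genes called higher had a median gene model of 3031 bases, genes called lower one of 6259 bases, and all tested genes one of 4172 bases. In the shortest of 5 equal length classes 16.7% of genes were higher and 2.8% lower, and in the longest 4.16% were higher and 28% lower. The slope of a library's log2 levels on gene length ran from -0.165 to -0.0691 per doubling of length in the 4 Egf libraries, from -0.0883 to -0.00742 in the vehicle libraries and from -0.000114 to 0.225 in the untreated libraries. Untreated replicate 3 had the value of 0.225. Without this library 394 genes were higher and 876 lower, and without untreated replicate 1 the counts were 743 and 1510. Leaving out Egf replicate 1 gave 669 and 1257, and leaving out Egf replicate 2 gave 717 and 1332. With an offset for length in every library, chosen after these values were seen, 1445 genes were higher and 1414 lower, so that the share of higher genes among the calls went from 40.4% to 50.5%, and 2272 of the 3276 calls remained. The part of the length trend in any single call was not tested.

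**Figure D1:**
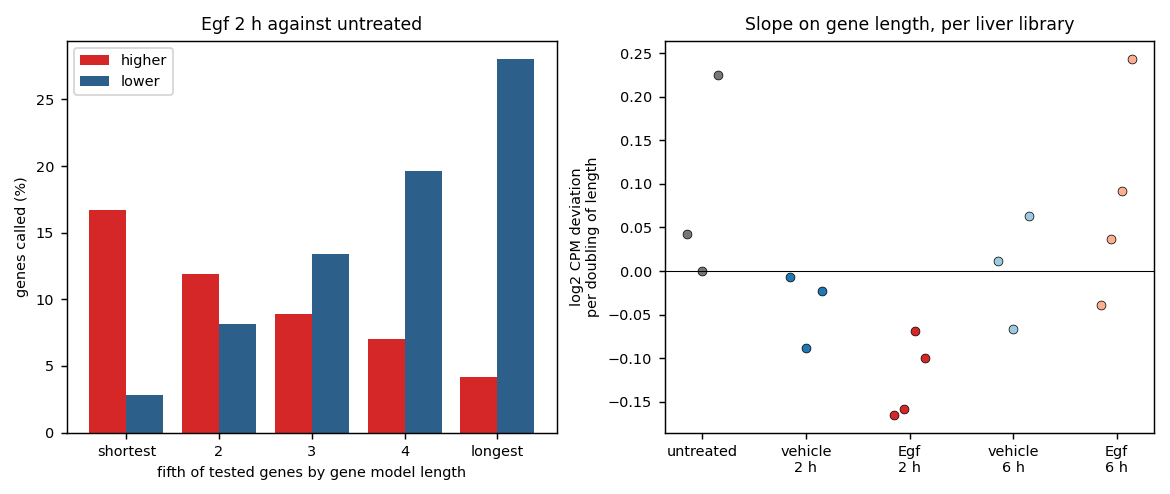
Left, the share of tested genes (%) called higher (red) and lower (blue) in Egf 2 h than in untreated liver, by 5 equal classes of gene model length from shortest to longest. Right, the slope of each liver library's log2 CPM deviation on log2 gene length, 1 point per library, with all 4 Egf 2 h libraries below 0 and untreated replicate 3 at 0.225.

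A change of vehicle from untreated liver was counted as cancelled where Egf against vehicle was called in the opposite direction. It was counted as left where Egf against untreated was called in the vehicle's direction and Egf against vehicle was not called. It was counted as amplified where Egf against vehicle was called in the vehicle's direction. Of the 21 genes, 3 were cancelled, 15 were left and 3 were amplified. The 3 cancelled genes were Lpin1 and Herpud1, which the vehicle raised, and Tgm1, which it lowered. In all 3, Egf liver was not called different from untreated liver and its log2 change from untreated was smaller than the vehicle's change divided by 2. Every vehicle call enters its class through the same untreated and vehicle libraries, so the classes are a description of these libraries.

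Lpin1 encodes lipin 1, a phosphatidate phosphatase on the path to triglyceride that also acts as a transcriptional coactivator (ENSMUSG00000020593, chromosome 12 from 16585670 to 16696967 on mm39). Untreated libraries had 32.1, 52.5 and 47.9 CPM, vehicle libraries 301, 151 and 320, and Egf libraries 64.9, 33.2, 63.6 and 51.0. The Egf and untreated libraries overlapped, with 2 Egf libraries above all untreated ones, and every vehicle library lay above both groups, with replicate 2 the lowest of the 3. The vehicle raised Lpin1 by 2.54 ± 0.30 (SE) on the log2 scale (adjusted p = 0.00131), Egf liver was 2.27 ± 0.27 below vehicle liver on that scale (adjusted p = 4.08e-05), and Egf differed from untreated by 0.27 ± 0.27 (adjusted p = 0.471, 95% interval -0.29 to 0.83). At 6 h, when vehicle libraries had fallen to 86.4 ± 23.8 CPM (SD, n = 3), Egf libraries had 103 ± 10.2 (n = 4).

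Herpud1 encodes a protein of the endoplasmic reticulum membrane that serves the degradation of misfolded proteins (ENSMUSG00000031770, chromosome 8 from 95113066 to 95122005). Its levels were 292, 303 and 233 CPM untreated, 605, 730 and 648 with vehicle, and 331, 354, 367 and 366 with Egf. The 3 groups did not overlap: the Egf libraries stood just above the untreated ones and far below the vehicle ones. The log2 change was 1.26 ± 0.20 for vehicle against untreated (adjusted p = 0.0157), -0.90 ± 0.18 for Egf against vehicle (adjusted p = 0.0059) and 0.36 ± 0.19 for Egf against untreated (adjusted p = 0.15). The last was called with the 10 compared libraries alone (adjusted p = 0.0398) and with the replicate block (adjusted p = 0.0487).

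Tgm1 encodes transglutaminase 1, which cross-links proteins (ENSMUSG00000022218, chromosome 14 from 55937466 to 55951383). Untreated libraries had 23.2, 18.2 and 20.6 CPM, vehicle libraries 9.47, 7.17 and 4.96, and Egf libraries 24.7, 29.6, 42.2 and 36.9. Vehicle libraries lay below and Egf libraries above all untreated ones, without overlap. The vehicle change was -1.52 ± 0.28 (adjusted p = 0.0322) and Egf against vehicle 2.21 ± 0.28 (adjusted p = 7.03e-05). Egf against untreated was 0.69 ± 0.25 (adjusted p = 0.0538), and it was called in 6 of 19 alternative settings, among them DESeq2 (adjusted p = 0.0276) and RLE scaling (adjusted p = 0.0455). Tgm1 kept its cancelled status in 13 of the 19 settings, Herpud1 in 14 and Lpin1 in all 19. The status of Herpud1 and of Tgm1 was lost through the vehicle call, among others without vehicle replicate 2, without vehicle replicate 3, without untreated replicate 1 and without untreated replicate 3.

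**Figure D2:**
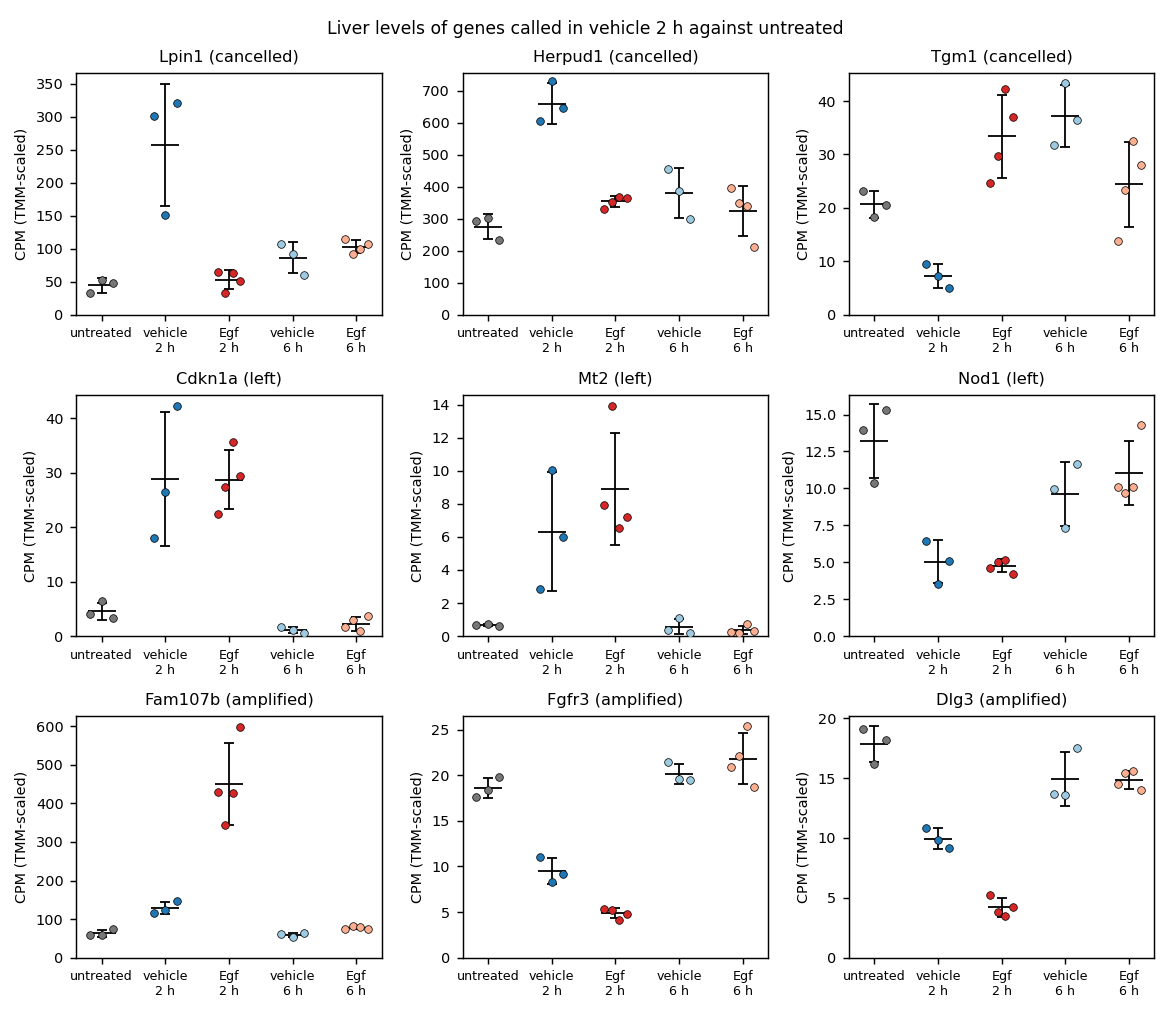
Levels in CPM (vertical axes, linear from 0) of 9 genes called in vehicle 2 h against untreated liver. There is 1 point per liver library in 5 groups, with the mean and SD as bars. In the top row (cancelled) Egf 2 h libraries lie nearer to the untreated than to the vehicle 2 h ones for Lpin1 and Herpud1 and above the untreated ones for Tgm1, in the middle row near the vehicle 2 h ones (left), and in the bottom row farther from untreated than the vehicle 2 h ones (amplified).

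Vehicle changes that Egf left in place included 7 rises and 8 falls. For 6 of these 15 genes, Cdkn1a, Cish, Mt2, Nod1, Retreg1 and St3gal5, the 95% interval of Egf minus vehicle lay within the vehicle change divided by 2 on either side of 0. For the other 9 a partial change by Egf is within the interval. Cdkn1a encodes the cyclin-dependent kinase inhibitor p21 (ENSMUSG00000023067, chromosome 17 from 29309950 to 29319701). It had 3.99, 6.36 and 3.34 CPM in untreated libraries, 17.9, 26.5 and 42.2 in vehicle libraries and 22.5, 27.3, 35.6 and 29.4 in Egf libraries. The Egf libraries fell within the range of the vehicle libraries, all 7 above every untreated one. Its log2 change was 2.67 ± 0.41 with vehicle (adjusted p = 0.0157), 2.66 ± 0.39 with Egf (adjusted p = 0.000189) and -0.01 ± 0.35 between them (95% interval -0.74 to 0.72).

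Mt2 encodes a metallothionein, a small protein that binds zinc and copper and is induced by glucocorticoids and metals (ENSMUSG00000031762, chromosome 8 from 94899292 to 94900196). Untreated libraries had 0.682, 0.759 and 0.589 CPM, vehicle libraries 2.87, 10.0 and 6.00, and Egf libraries 7.95, 13.9, 6.55 and 7.22. All injected libraries at 2 h lay above all untreated ones, and the vehicle libraries spread most. The rise was 3.22 ± 0.52 with vehicle and 3.71 ± 0.50 with Egf on the log2 scale. At 6 h Mt2 was back at 0.562 ± 0.461 CPM with vehicle (SD, n = 3) and 0.371 ± 0.254 with Egf (n = 4). Mt1, its neighbour, rose with Egf from 114 ± 42.5 to 368 ± 138 CPM (log2 change 1.70 ± 0.45, adjusted p = 0.0153), a call lost without untreated replicate 1 or 3. With vehicle it stood at 304 ± 196 CPM (adjusted p = 0.227).

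St3gal5, which encodes the sialyltransferase that makes the ganglioside GM3 (ENSMUSG00000056091, chromosome 6 from 72074576 to 72131555), had 100.3, 101 and 110 CPM untreated, 258, 242 and 315 with vehicle, and 197, 257, 240 and 259 with Egf. No injected library overlapped an untreated one. It was still at 265 ± 53.2 CPM with vehicle (SD, n = 3) and 295 ± 58.2 with Egf (n = 4) at 6 h. Retreg1, which encodes a receptor for autophagy of the endoplasmic reticulum, went from 94.5 ± 7.51 CPM to 239 ± 30.02 with vehicle and 237 ± 13.97 with Egf. Cish, an inhibitor of cytokine signalling induced by Stat5, went from 7.76 ± 1.77 to 26.1 ± 7.06 and 31.3 ± 9.06. Shld2, which encodes a subunit of a DNA repair complex, went from 25.3 ± 2.39 to 46.8 ± 7.07 and 56.4 ± 5.97. Mknk2, which encodes a kinase of the translation factor eIF4E that MAPK activates, had 76.3, 82.5 and 79.9 CPM untreated, 129, 135 and 142 with vehicle and 165, 175, 188 and 213 with Egf. Its 3 groups did not overlap, and Egf against vehicle just missed the threshold (0.45 ± 0.13, adjusted p = 0.0535). In 8 of 19 alternative settings that comparison was called, and Mknk2 counted as left in 4.

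The 8 falls that Egf left were led by Nod1, which encodes a cytosolic sensor of bacterial cell wall fragments (ENSMUSG00000038058, chromosome 6 from 54900934 to 54949597). It had 13.9, 10.4 and 15.3 CPM untreated, 6.46, 3.55 and 5.10 with vehicle and 4.59, 5.04, 5.17 and 4.21 with Egf. Vehicle and Egf libraries overlapped and all lay below the untreated ones. The changes were -1.39 ± 0.24 and -1.47 ± 0.22 on the log2 scale. Trim14 and Trim26, members of the tripartite motif family with roles in antiviral signalling, fell by 0.95 ± 0.16 and 0.90 ± 0.17 with vehicle and by 1.36 ± 0.15 and 1.44 ± 0.16 with Egf. Acvr1b, which encodes a type I receptor of activin, fell by 0.96 ± 0.19 and 1.12 ± 0.17. Llgl2, a gene of epithelial polarity, fell by 1.03 ± 0.20 and 1.66 ± 0.18, and Plekhg6 by 1.10 ± 0.21 and 1.44 ± 0.19. Klhdc7a fell by 1.16 ± 0.19 and 1.68 ± 0.18, and Ttc7, which serves to bring a phosphatidylinositol 4-kinase to the membrane, by 0.75 ± 0.14 and 0.92 ± 0.13. With DESeq2, limma voom and the replicate block, Llgl2 and Trim26 counted as amplified (DESeq2 adjusted p of Egf against vehicle 0.0464 for Llgl2 and 0.0476 for Trim26). All 15 genes were called in Egf against untreated in 19 of 19 settings. Their vehicle calls were less firm, and without vehicle replicate 3 only 1 gene was left in place, without untreated replicate 3 only 1 and without untreated replicate 1 none. Without vehicle replicate 2 the count was 3, and without vehicle replicate 1 it was 6.

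Amplified vehicle changes were those of Fam107b, Fgfr3 and Dlg3. Fam107b (ENSMUSG00000026655, chromosome 2 from 3571525 to 3783179) had 58.6, 57.6 and 73.8 CPM untreated, 115, 123 and 146 with vehicle and 429, 343, 428 and 598 with Egf. The 3 groups were apart and in that order. The vehicle raised it by 1.02 ± 0.18 (adjusted p = 0.0207) and Egf by a further 1.81 ± 0.17 (adjusted p = 2.81e-06), and at 6 h it stood at 78.0 ± 3.71 CPM with Egf (SD, n = 4) and 59.5 ± 5.54 with vehicle (n = 3). Fgfr3, which encodes a receptor of fibroblast growth factors (ENSMUSG00000054252, chromosome 5 from 33879018 to 33894412), had 17.6, 18.4 and 19.8 CPM untreated, 11.1, 8.29 and 9.14 with vehicle and 5.30, 5.21, 4.16 and 4.84 with Egf. It stepped down in both groups without overlap, by 0.97 ± 0.16 with vehicle and by a further 0.96 ± 0.15 with Egf on the log2 scale. Dlg3, which encodes a scaffold protein of cell junctions and synapses, went from 17.8 ± 1.52 CPM to 9.94 ± 0.85 and 4.20 ± 0.769. Egf against vehicle was called for all 3 in 19 of 19 settings, whereas the vehicle call held in 12 settings for Fam107b, 14 for Fgfr3 and 6 for Dlg3. It was lost for all 3 without vehicle replicate 2 or 3 and without untreated replicate 1 or 3.

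**Figure D3:**
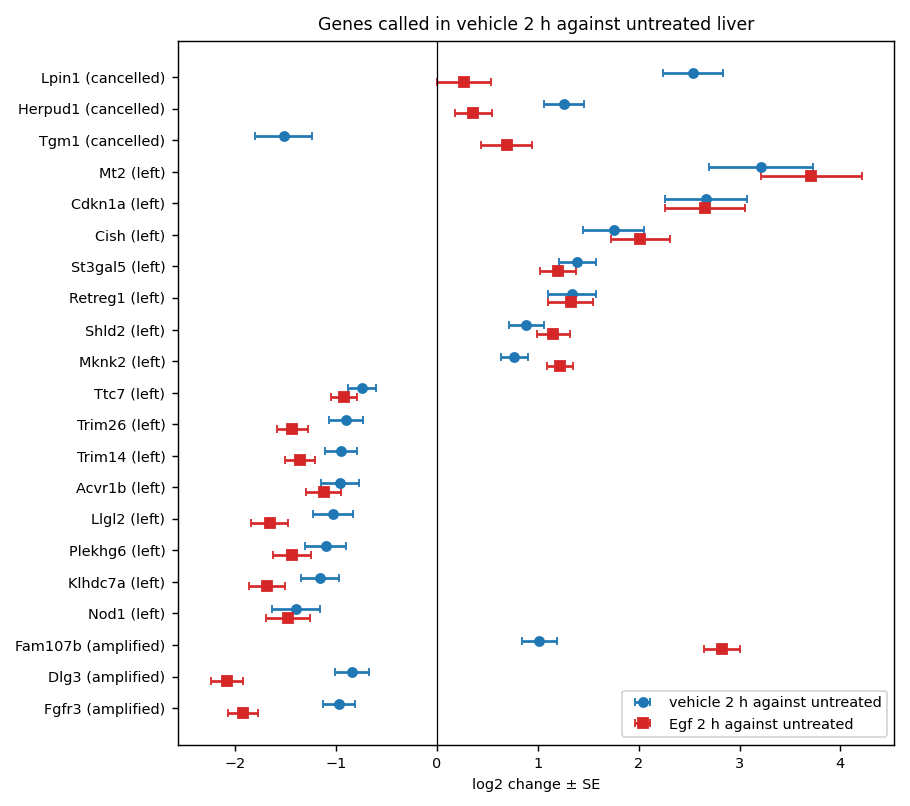
Log2 change ± SE against untreated liver of the 21 genes called in vehicle 2 h against untreated, for vehicle 2 h (blue circles) and Egf 2 h (red squares). The squares of Lpin1 and Herpud1 lie near 0 and that of Tgm1 on the other side of 0, those of the genes left in place lie on the same side as the circles, and those of Fam107b, Dlg3 and Fgfr3 lie farther out.

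The promoters of these genes were searched for the binding letters of factors that answer to cAMP, the clock, growth factors and glucocorticoids. Windows of 250 bases before the transcription start were taken from RefSeq (build GRCm38.p6, older than the mm39 of the counts), and were at hand for all 3 cancelled, 12 of 15 left and all 3 amplified genes. The motifs, read on both strands, were the cAMP response element TGACGTCA, the E-box CACGTG, the D-box TTANGTAA, the AP-1 site TGANTCA and the glucocorticoid response element in its palindromic form. None of them occurred in the windows of Lpin1, Herpud1 or Tgm1. Of the left genes, Retreg1 and Trim26 held the cAMP response element, Acvr1b and a second window of Retreg1 the E-box, and Mt2 the AP-1 site. Among amplified genes Fam107b held an AP-1 site. Of all 32851 RefSeq windows 1.55% held the cAMP response element, 6.02% the E-box, 2.06% the D-box, 6.75% the AP-1 site and 0.387% the glucocorticoid response element. These shares are per window, whereas some genes had more than 1 window, and Retreg1 had 4. A match is only a run of letters, and its absence says nothing of the factor. For Mt2, Cish and 1 window of Dlg3, the bases after the window were not found near the start of an annotated transcript of the gene. A matched window of each of these 4 left genes is printed 5′ to 3′, on the plus strand, with the motif in capitals. Windows are cut before the first annotated transcript start inside them, and that of Mt2, which held none, is printed in full. They are Mt2 at chr8:94172368-94172617, Retreg1 at chr15:25843048-25843179, Trim26 at chr17:36836896-36837133 and Acvr1b at chr15:101173822-101174066.
Mt2: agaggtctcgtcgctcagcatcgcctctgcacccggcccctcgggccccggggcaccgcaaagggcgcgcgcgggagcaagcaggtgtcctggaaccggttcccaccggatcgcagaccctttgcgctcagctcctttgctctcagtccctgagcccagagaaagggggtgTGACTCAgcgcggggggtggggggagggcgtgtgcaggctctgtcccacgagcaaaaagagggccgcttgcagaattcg
Retreg1: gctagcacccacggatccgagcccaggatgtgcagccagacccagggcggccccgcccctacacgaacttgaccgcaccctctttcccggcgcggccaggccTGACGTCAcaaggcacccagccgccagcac
Trim26: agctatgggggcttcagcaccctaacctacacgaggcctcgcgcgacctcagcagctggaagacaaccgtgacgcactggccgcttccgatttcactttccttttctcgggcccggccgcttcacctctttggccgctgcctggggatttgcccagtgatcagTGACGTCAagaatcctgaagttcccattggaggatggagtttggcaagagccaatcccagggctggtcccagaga
Acvr1b: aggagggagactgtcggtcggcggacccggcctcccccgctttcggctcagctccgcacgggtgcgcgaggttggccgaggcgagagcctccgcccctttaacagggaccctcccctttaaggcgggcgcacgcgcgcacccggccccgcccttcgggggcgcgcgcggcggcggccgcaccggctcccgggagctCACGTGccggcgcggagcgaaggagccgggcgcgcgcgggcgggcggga

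Other tools called more vehicle genes and gave other shares of the classes. DESeq2 called 151 vehicle genes and put 5.3% in the cancelled class, 62.9% in the left class and 21.9% in the amplified class. limma voom called 526, with 5.13%, 70.5% and 10.6%, and edgeR's shares were 14.3%, 71.4% and 14.3%. DESeq2's 8 cancelled genes were the 3 above and, chosen after their values were seen, Lipe, Parp16, Eepd1, Pcp4l1 and Irgm2. Lipe, which encodes hormone-sensitive lipase, changed by -0.98 ± 0.24 with vehicle (edgeR adjusted p = 0.136, DESeq2 adjusted p = 0.0182) and by 0.98 ± 0.23 from vehicle to Egf (edgeR adjusted p = 0.0179). Parp16, which encodes an ADP-ribosyltransferase of the endoplasmic reticulum, differed by 0.58 ± 0.16 with vehicle (edgeR adjusted p = 0.181, DESeq2 adjusted p = 0.0411) and by -1.70 ± 0.15 between Egf and vehicle, which put it 1.12 ± 0.15 below untreated on the log2 scale as a fall (edgeR adjusted p = 9.05e-05). The 27 cancelled genes of limma voom held vehicle changes in both directions. With limma voom alone they included Zbtb16, a glucocorticoid-induced repressor (1.43 ± 0.43 with vehicle, edgeR adjusted p = 0.208, and -1.49 ± 0.40 between Egf and vehicle, edgeR adjusted p = 0.0395). Ppargc1a and Slc7a2, also cancelled by limma voom alone, had the same directions. Irf9, Irgm1, Tap1 and Rtp4, again by limma voom alone, were lower with vehicle and higher with Egf than with vehicle.

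Among the 3276 genes that differed between Egf and untreated liver, 486 (14.8%) were classed as changed by Egf alone. They were called in the same direction against vehicle and not called between vehicle and untreated. Of these 239 were higher and 247 lower. A gene of this class may still differ between vehicle and untreated liver. The adjustment's cutoff was stricter for the vehicle comparison, with 21 calls, than for Egf against untreated, and limma voom called 526 vehicle genes. A further 2772 genes (84.6%) were called against untreated only, 1076 higher and 1696 lower. In the latter the vehicle had a median log2 change of 0.47 over the higher genes and -0.49 over the lower ones, against 0.03 and -0.29 over the genes changed by Egf alone. Their median gene model was 2733.5 bases for the higher and 6388.5 for the lower genes, against 4151 and 5635. Another 41 genes were called between Egf and vehicle only.

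The largest rises included genes of receptors, phosphatases, transcription factors and the cytoskeleton. Tnfrsf12a, the gene of Fn14, to which the cytokine Tweak binds (ENSMUSG00000023905, on chromosome 17 from 23894419 to 23896442), had 7.03, 6.36 and 5.01 CPM untreated and 199, 263, 225 and 288 with Egf. Vehicle libraries, with 10.2, 18.6 and 10.2 CPM, lay just above the untreated ones. Egf raised it by 5.31 ± 0.30 on the log2 scale (adjusted p = 5.09e-09), and the vehicle change of 1.09 ± 0.28 was not called. Rcan1, which encodes an inhibitor of calcineurin (ENSMUSG00000022951, chromosome 16 from 92188841 to 92267755), had 26.7, 30.2 and 20.2 CPM untreated, 30.7, 34.1 and 34.7 with vehicle and 341, 255, 282 and 361 with Egf. It rose by 3.59 ± 0.20, with all Egf libraries far above the other 6. Actg1, which encodes cytoplasmic gamma-actin, had 163, 139 and 179 CPM untreated and 1407, 1545, 1023 and 1451 with Egf, and in vehicle liver 263, 371 and 277. It rose by 3.08 ± 0.22.

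Further rises came from lower levels. Dusp5, which encodes a nuclear phosphatase of the MAP kinase Erk, went from 0.823 ± 0.608 CPM to 22.5 ± 11.0 (log2 change 4.76 ± 0.49), and Atf3, a stress-induced transcription factor, from 0.966 ± 0.192 to 25.5 ± 7.79 (4.72 ± 0.51). Snai3, of the Snail family of repressors, rose by 5.0 ± 0.54, the lipid droplet gene Cidec by 3.86 ± 0.50, Thbs1, which encodes thrombospondin 1, by 3.31 ± 0.39, and Sphk1, a kinase that makes sphingosine 1-phosphate, by 3.25 ± 0.40. Adcy1, which encodes an adenylate cyclase, rose by 4.01 ± 0.71 from 12 reads in all untreated libraries, and its vehicle change was 2.60 ± 0.76, which was not called. Fosl1, a partner of Jun in AP-1, had 0 reads in the untreated and in the vehicle libraries and 0.942, 2.02, 1.32 and 0.565 CPM with Egf, at least 22.9-fold higher than a floor of 3 reads over the untreated group. Without Egf replicate 1, 2 or 3, too few libraries held enough reads of Fosl1 for it to be tested. Mup12, a major urinary protein gene with near-identical neighbours to which reads cannot be assigned with certainty, was at 105, 24.3, 46.1 and 32.8 CPM with Egf against 2.31, 3.50 and 9.87. Its call (3.31 ± 1.05, adjusted p = 0.038) was lost without Egf replicate 1 and without any of the untreated libraries.

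The deepest fall was that of S1pr5, which encodes a receptor of sphingosine 1-phosphate (ENSMUSG00000045087, chromosome 9 from 21154208 to 21159739). It had 4.51, 4.90 and 6.24 CPM untreated, 2.66, 1.18 and 2.02 with vehicle and 0.412, 0.224, 0.315 and 0.314 with Egf. The 3 groups stepped down without overlap, the vehicle by 1.42 ± 0.31, which was not called, and Egf by 4.02 ± 0.35 from untreated (adjusted p = 6.05e-07). Usp2, which encodes a deubiquitinase driven by the clock, was not lowered by vehicle (2.58, 8.54 and 4.68 CPM against 7.18, 2.45 and 6.04 untreated) and had 0.177, 0.224, 0.819 and 0.251 CPM with Egf, a change of -3.83 ± 0.51. Gas1, a growth arrest gene, had 28.2, 26.2 and 29.6 CPM untreated, 27.6, 20.8 and 21.4 with vehicle and 5.36, 3.47, 4.54 and 3.08 with Egf. Its fall of 2.77 ± 0.19 had a vehicle change of -0.27 ± 0.19 beside it.

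Dclk3, a kinase gene, fell by 3.68 ± 0.34 and Kcnk5, which encodes a potassium channel, by 2.95 ± 0.28. Lipg, which encodes endothelial lipase, fell by 3.17 ± 0.41 and Sema6c, a semaphorin gene, by 3.35 ± 0.51. Hells and Top2a, which encode a chromatin helicase and a topoisomerase of dividing cells, fell by 3.29 ± 0.79 and 3.02 ± 0.76 from 1.25 ± 0.633 and 1.28 ± 0.745 CPM. Wipf3 fell by 2.75 ± 0.43, Iqce by 2.69 ± 0.32, Tnfaip8l3 by 2.90 ± 0.51 and Ccdc191 by 2.90 ± 0.80. The calls of Top2a, Ccdc191 and the clock gene Ciart were lost without untreated replicate 1.

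**Figure D4:**
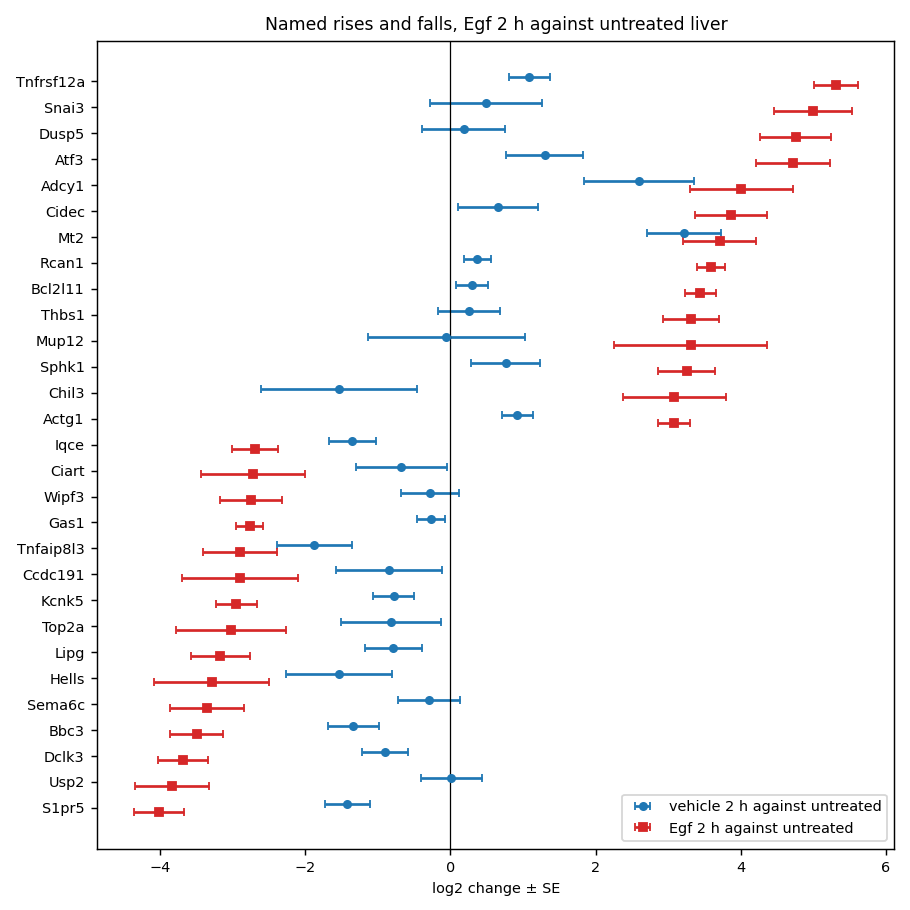
Log2 change ± SE against untreated liver of the largest named rises and falls in Egf 2 h (red squares), with vehicle 2 h against untreated (blue circles) beside them. The red squares run from 5.31 for Tnfrsf12a to -4.02 for S1pr5, and of the genes drawn only Mt2 was called with vehicle (Fosl1, without reads in the untreated group, is not drawn).

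Of 24 immediate early genes tested, 15 rose with Egf and Zfp36 fell, with a median log2 change of 1.03 against -0.05 over all genes. Counts of Egf against untreated, for this and every list below, stand beside the shares of all tested genes, 9.73% higher and 14.4% lower. For vehicle against untreated these shares were 0.0736% higher and 0.0809% lower, and for Egf against vehicle 1.95% higher and 1.97% lower. Whether any list differs from these shares was not tested. Mcl1, which encodes a protein that protects from apoptosis, had 103, 98.6 and 87.3 CPM untreated, 88.8, 110 and 91.5 with vehicle and 214, 208, 214 and 242 with Egf. The vehicle libraries overlapped the untreated ones and the Egf libraries lay apart (1.19 ± 0.13, adjusted p = 7.59e-06). Jund rose by 1.07 ± 0.15, Cebpb by 0.92 ± 0.21, Cebpd by 1.67 ± 0.30 and Myc by 1.42 ± 0.41. With vehicle, 0 of the 24 were called by edgeR, DESeq2 or limma voom, and 5 had an unadjusted p under 0.05, while 8 of the 24 were higher in Egf than in vehicle liver. Without untreated replicate 3 the count of rises was 9.

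Feedback genes of MAPK and Egfr signalling moved up in 7 of 19 cases and down in 1, with a median of 0.55, which was 0.30 without Egf replicate 1, 0.36 without Egf replicate 3, 0.33 without untreated replicate 3 and 0.08 with limma voom. Spred1, which encodes an inhibitor of Ras activation, had 29.4, 27.6 and 32.6 CPM untreated, 26.2, 27.1 and 29.0 with vehicle and 111, 115, 105 and 135 with Egf, a rise of 1.96 ± 0.14 (adjusted p = 6.27e-08). Only the Egf libraries stood out. The phosphatase genes Dusp4 and Dusp14 rose by 2.15 ± 0.33 and 2.48 ± 0.36, and Errfi1, which encodes an inhibitor of Egfr itself, went from 365 ± 240 to 986 ± 70.3 CPM (1.43 ± 0.36) with vehicle at 708 ± 325. Spry4, of the Sprouty family of inhibitors, went against them: 6.13, 7.30 and 12.7 CPM untreated, 4.45, 3.55 and 8.17 with vehicle and 1.94, 2.02, 1.197 and 1.70 with Egf, a fall of 2.34 ± 0.35.

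Of 10 receptors and ligands of the Egf family 2 rose and 3 fell, with a median of 0.45. Egfr had 172, 193 and 269 CPM untreated, 236, 218 and 176 with vehicle and 190, 201, 397 and 209 with Egf, and the change of 0.24 ± 0.29 was not called (adjusted p = 0.555). The groups overlapped, with Egf replicate 3 the highest library. Erbb3, a receptor that pairs with Egfr and Erbb2, had 65.8, 46.0 and 98.5 CPM untreated, 63.1, 24.6 and 43.7 with vehicle and 19.5, 16.8, 17.8 and 27.4 with Egf, a fall of 1.78 ± 0.29 (adjusted p = 0.000416). Untreated and Egf libraries did not overlap, and vehicle replicate 2 lay among the Egf libraries. Erbb2 fell by 1.51 ± 0.46 from 1.31 ± 0.662 CPM, a call lost without untreated replicate 3 and without Egf replicate 3 or 4, and Erbb4 was not called at 0.04 ± 0.36. Of the ligands, Tgfa, an Egfr ligand that hepatocytes make, fell by 1.42 ± 0.19 (19.7, 20.3 and 27.9 CPM untreated, 14.7, 11.0 and 16.7 with vehicle, 6.59, 10.5, 9.07 and 7.66 with Egf), while Btc rose by 1.22 ± 0.38 and Nrg4 by 1.31 ± 0.33. Neither rise was called without untreated replicate 3.

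Of 26 genes of gluconeogenesis and the fasting signal, 6 fell and 2 rose, with a median of -0.07, against 24.1% of all tested genes called in either direction. edgeR called 0 of the 26 with vehicle, where 7 had an unadjusted p under 0.05 and DESeq2 called 2 higher and limma voom 4 higher. Pck1, which encodes the enzyme that commits oxaloacetate to glucose production (ENSMUSG00000027513, on chromosome 2 from 172994841 to 173001066), had 907, 1966 and 786 CPM untreated, 1456, 1448 and 1808 with vehicle and 260, 270.2, 373 and 206 with Egf, a fall of 2.14 ± 0.32 (adjusted p = 0.000191). Tat, which encodes the tyrosine-degrading enzyme tyrosine aminotransferase, had 1165, 2006 and 1171 CPM untreated and 591, 432, 540 and 447 with Egf (-1.53 ± 0.22). In each, the Egf libraries lay below all untreated and vehicle libraries. Ppargc1a, the coactivator of the fasting response, fell by 1.40 ± 0.28, and Ppp1r3b and Ppp1r3c, which target a phosphatase to glycogen, by 0.98 ± 0.27 and 1.02 ± 0.27. Crem, a target and modulator of cAMP signalling, rose by 1.30 ± 0.22, with vehicle libraries of 34.4, 50.0 and 28.1 CPM between 17.6, 27.5 and 18.7 untreated and 47.9, 55.8, 53.7 and 51.5 with Egf.

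Of 21 glucocorticoid-induced genes tested, 3 were raised by vehicle, Lpin1, Mt2 and Cdkn1a, and 0 lowered, with a median change of 0.43. Of all tested genes, 0.0736% were higher in vehicle than in untreated liver, and 1.97% lower in Egf than in vehicle liver. Egf against vehicle lowered 5, Lpin1, Tat, Klf15, Sesn1 and Zbtb16, and raised 0, so that against untreated liver 5 were higher (Mt1, Mt2, Cdkn1a, Angptl4 and Gadd45b), 3 lower (Tat, Klf15 and Sesn1) and the median was 0.03. That median was 0.33 without untreated replicate 3, 0.21 with the replicate block and 0.44 with limma voom. The vehicle count of 3 was 1 without vehicle replicate 3 or untreated replicate 1. Klf15, a transcription factor of amino acid breakdown (ENSMUSG00000030087, chromosome 6 from 90439558 to 90452220), had 132, 147 and 108 CPM untreated, 96.7, 145 and 117 with vehicle and 35.4, 32.7, 34.5 and 39.3 with Egf. The Egf libraries lay far below the other 6, a fall of 1.86 ± 0.16 (adjusted p = 4.47e-07). Angptl4, which encodes an inhibitor of lipoprotein lipase, stood at 34.1 ± 17.2 CPM untreated, 94.7 ± 51.1 with vehicle and 128 ± 37.3 with Egf, and its rise of 1.91 ± 0.43 lost its call without untreated replicate 3. Without untreated replicate 1 or 3, 3 of the 21 were higher.

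Of 20 genes of fatty acid and triglyceride synthesis, 2 fell and 2 rose, with a median of -0.07, beside 24.1% of all tested genes called. Lpin1 alone was called with vehicle. Srebf1, the transcription factor of lipogenesis (ENSMUSG00000020538, chromosome 11 from 60089915 to 60113407), had 391, 365 and 357 CPM untreated, 222, 117 and 204 with vehicle and 136, 79.6, 111 and 140 with Egf. It fell by 1.67 ± 0.23 with Egf (adjusted p = 7.15e-05). The vehicle change of -1.04 ± 0.24 was not called (adjusted p = 0.123), although no vehicle library overlapped an untreated one. Lpin2, the paralog of Lpin1, had 80.3, 67.5 and 117 CPM untreated, 211, 114 and 158 with vehicle and 228, 227, 327 and 380 with Egf, a rise of 1.72 ± 0.25. In Egf liver Lpin2 was thus above its untreated level, while Lpin1 was not called. Mlxipl, the carbohydrate response factor, fell by 1.04 ± 0.21.

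Genes of cholesterol synthesis rose in 9 of 25 cases, with a median of 0.50. Hsd17b7, an enzyme of the late pathway, had 164, 94.3 and 146 CPM untreated, 132, 96.1 and 162 with vehicle and 399, 198, 471 and 578 with Egf (1.61 ± 0.29, adjusted p = 0.000845). Msmo1 had 453, 218 and 323 CPM untreated and 923, 418, 971 and 989 with Egf (1.32 ± 0.27). Egf replicate 2 was the lowest Egf library for both, and for Msmo1 it lay within the untreated range. The count of rises was 3 without untreated replicate 3 and 4 without Egf replicate 1 or 4.

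Of 23 clock genes 10 fell and 0 rose, with a median of -0.64, beside 14.4% of all tested genes lower. Hlf, a clock output factor, had 46.5, 35.3 and 60.3 CPM untreated, 36.1, 27.4 and 38.9 with vehicle and 16.95, 24.9, 17.4 and 18.7 with Egf, a fall of 1.28 ± 0.18. Per2, a repressor of the core clock, had 5.24, 2.28 and 6.09 CPM untreated, 2.51, 4.30 and 3.35 with vehicle and 2.18, 1.12, 0.630 and 0.817 with Egf (-1.93 ± 0.39). Egf libraries lay below all untreated ones in both. Dbp went from 38.2 ± 34.3 to 7.86 ± 2.53 CPM (-2.28 ± 0.51), and Arntl, the core activator, from 6.35 ± 2.78 to 2.17 ± 0.98 (-1.55 ± 0.43). The fall of Arntl and that of its targets Dbp and Per2 had the same direction, and the part of the hour of harvest in them was not tested. Without untreated replicate 3 the clock list had 7 falls. With vehicle, 0 of the 23 were called by edgeR, DESeq2 or limma voom, and 4 had an unadjusted p under 0.05. Egf against vehicle called 3 lower, beside 1.97% of all tested genes. The hour of harvest cannot be told apart from treatment in the comparison with untreated liver.

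Of 23 genes that respond to unfolded proteins or to a lack of amino acids, 2 rose and 4 fell, with a median of 0.12, beside 24.1% of all tested genes called, and the falls were 2 without Egf replicate 1 or 2 and without untreated replicate 2 or 3. Xbp1, its spliced transcription factor, had 353, 268 and 247 CPM untreated, 310, 331 and 203 with vehicle and 699, 735, 843 and 891 with Egf (1.45 ± 0.23, adjusted p = 0.000241). Egf libraries were above all others, in a list whose member Herpud1 was called with vehicle and not with Egf. Of 16 cytosolic heat shock genes, 6 rose and Hsp90ab1 fell by 0.68 ± 0.20, with a median of 0.35, beside the same 24.1%. No heat shock gene was lower without Egf replicate 1, 2 or 4 or without untreated replicate 3, and 3 were lower without Egf replicate 3. Hspb8, a small chaperone, had 191, 193 and 178 CPM untreated, 293, 531 and 250.3 with vehicle and 1295, 1227, 1160 and 1158 with Egf (2.69 ± 0.27), and Dnajb1 rose by 1.90 ± 0.18. Hspa1b, whose near-identical copy Hspa1a makes its reads uncertain, rose by 2.17 ± 0.47. Of 15 antioxidant genes of Nrf2, Srxn1, which reduces oxidized peroxiredoxins, rose by 1.72 ± 0.25 and no other was called.

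Regulators of apoptosis of the Bcl2 family rose in 3 and fell in 3 of 14 cases, with a median of -0.03, beside 24.1% of all tested genes called. Bcl2l11, which encodes the death-promoting protein Bim (ENSMUSG00000027381, chromosome 2 from 127967958 to 128004467), had 4.25, 4.26 and 4.22 CPM untreated, 3.88, 5.92 and 5.79 with vehicle and 44.4, 43.2, 33.1 and 64.5 with Egf (3.44 ± 0.22, adjusted p = 1.21e-08). Bcl2l1, which encodes the protective Bcl-xL, had 32.9, 29.1 and 32.6 CPM untreated and 79.4, 122, 126 and 149 with Egf (1.92 ± 0.18). Bbc3, which encodes the death-promoting protein Puma, had 13.3, 5.25 and 8.59 CPM untreated, 5.81, 2.68 and 2.30 with vehicle and 1.00, 0.504, 1.01 and 0.691 with Egf (-3.49 ± 0.37). Members that promote and members that prevent apoptosis thus stood on each side. Bmf, another promoter of apoptosis, fell by 2.49 ± 0.35.

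Of 19 genes of the cytoskeleton and of serum response factor, 9 rose and 0 fell, with a median of 0.47. Besides Actg1 and Thbs1 these included Srf itself (0.89 ± 0.16), Tubb6 (1.62 ± 0.27), Tpm4 (1.02 ± 0.18), the keratin genes Krt8 and Krt18 (0.66 ± 0.23 and 1.13 ± 0.25), Vasp and Plaur. Of 20 genes of the cell cycle and of p53, 5 rose and 5 fell, beside 24.1% of all tested genes called, with 3 falls without untreated replicate 1. Cdkn1b, which encodes the inhibitor p27, had 14.3, 11.3 and 13.6 CPM untreated, 10.1, 8.10 and 8.10 with vehicle and 4.53, 4.82, 4.28 and 5.15 with Egf (-1.47 ± 0.17), opposite in direction to Cdkn1a. Trp53inp1, a p53 target, stood at 63.7 ± 29.0 CPM untreated, 145 ± 22.4 with vehicle and 149 ± 32.3 with Egf (1.22 ± 0.24 with Egf, adjusted p = 0.00152, and a vehicle adjusted p of 0.0698).

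Growth hormone and insulin signalling genes gave 2 rises and 3 falls among 19, with a median of 0.04, beside 24.1% of all tested genes called: Cish and Socs2 (1.10 ± 0.37) rose, and Insr (-0.94 ± 0.22), Stat5b (-0.68 ± 0.13) and Stat5a (-2.10 ± 0.32) fell. Cish, a target of Stat5, thus rose with vehicle and with Egf while the mRNAs of both Stat5 genes fell with Egf. The call of Insr was lost without untreated replicate 3, and that of Socs2 without Egf replicate 1, 2 or 4 and without untreated replicate 2 or 3. Of 26 acute phase and NF-kB genes, 4 rose, with a median of 0.39, beside the same 24.1%. They were led by Il1r1, the receptor of interleukin 1 (17.7, 14.5 and 18.4 CPM untreated, 22.9, 14.7 and 18.4 with vehicle and 46.1, 67.3, 77.2 and 87.3 with Egf, 2.04 ± 0.22). The other 3 were Cebpd, Steap4 (0.71 ± 0.15) and Nfkbia (0.40 ± 0.13), the last lost without untreated replicate 1 or 3 and without Egf replicate 2 or 4. Of 24 ribosome biogenesis genes 6 rose, among them Nop58 (1.65 ± 0.21) and Nip7 (1.36 ± 0.18), and 2 fell, beside the same 24.1%. Of 15 amino acid transporters Slc7a1 rose, and Slc38a2 (-1.17 ± 0.14), Slc7a2 and Slc43a2 fell, beside the same 24.1%.

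Beside 24.1% of all tested genes, edgeR called 0 of 18 bile acid genes, 2 of 24 genes of the xenobiotic response (Abcc2 and Cyp26a1, lower) and 3 of 26 PPAR-alpha target genes (Angptl4 higher, Cpt2 and Acot2 lower). Whether these lists differ from the rest was not tested. For bile acids 3 genes had an unadjusted p under 0.05 in edgeR's test, and DESeq2 and limma voom each called 3 higher. Without Egf replicate 1, Egf replicate 2 or untreated replicate 3, 0 PPAR-alpha genes were lower, and without untreated replicate 2 the number was 6. Cyp7a1, the rate-limiting enzyme of bile acid synthesis, had 120, 66.7 and 153 CPM untreated, 213, 363 and 184 with vehicle and 268, 157, 276 and 209 with Egf. Its Egf libraries lay above all untreated ones with a change of 1.01 ± 0.38 that was not called (adjusted p = 0.0634). Abcc2, which encodes an exporter of conjugated bile pigments, fell by 1.04 ± 0.16, with Egf libraries of 138, 146, 160 and 156 CPM below 256, 258 and 411 untreated and 279, 223 and 292 with vehicle.

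**Figure D5:**
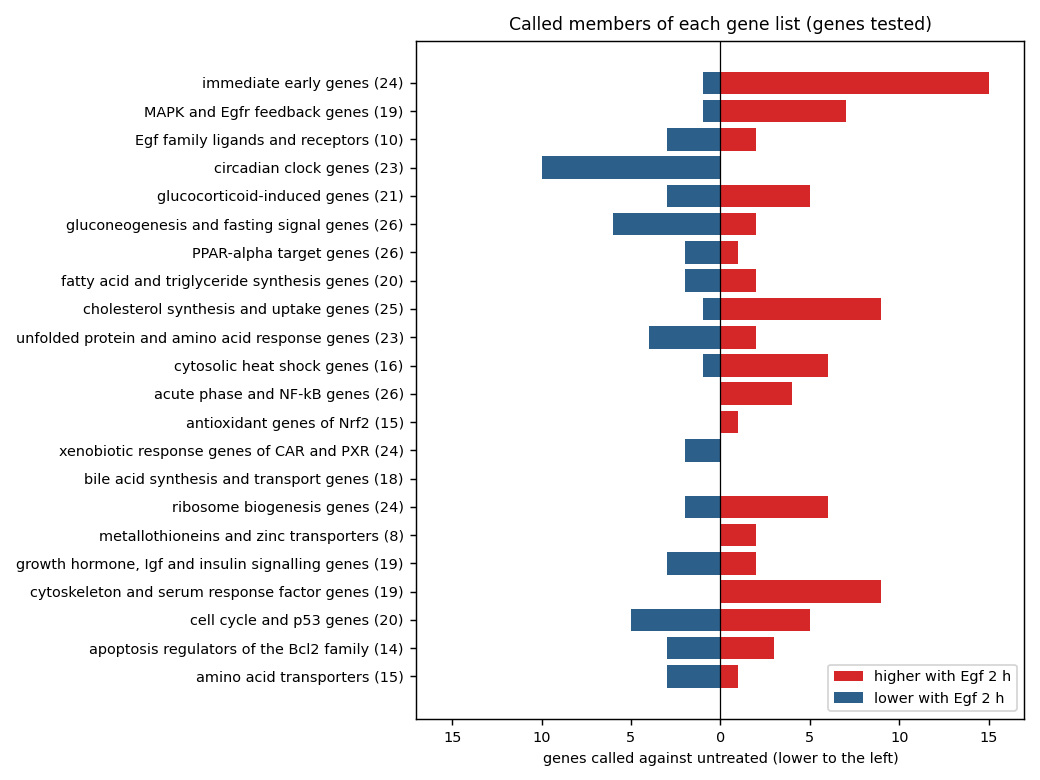
Number of genes called higher (red, to the right) and lower (blue, to the left) in Egf 2 h than in untreated liver in each of 22 gene lists, with the number tested in parentheses. Immediate early genes have 15 higher and 1 lower, clock genes 0 higher and 10 lower, and bile acid genes none in either direction. Of all tested genes 9.73% were called higher and 14.4% lower.

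Marker genes of other cells were followed in the same way. The summed level of 6 neutrophil genes was 0.731 to 1.65 CPM in untreated, 0.712 to 1.96 in vehicle and 2.21 to 8.01 in Egf libraries. Of the 3 that could be tested, S100a8 and S100a9 were higher with Egf (2.80 ± 0.58 and 2.77 ± 0.68), and Ly6g was at 0 in all 10 libraries. Of 4 monocyte genes Chil3, which neutrophils and macrophages also express, was higher (3.08 ± 0.71), with the summed level at 7.98 to 21.8 CPM untreated and 13.0 to 23.9 with Egf. Of 5 stellate cell genes Lrat was lower (-1.24 ± 0.23), and 0 of 5 were called for cholangiocytes, for Kupffer cells and for sinusoidal endothelial cells. In bulk liver, fewer cells of a type and less RNA per cell cannot be told apart. The part of neutrophils in the rises of Il1r1, Thbs1, Plaur or Chil3 was not tested.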

How the data were processed

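Liver RNA (polyA-selected, non-directional libraries, so that reads of a gene and of an overlapping or antisense gene cannot be told apart) was sequenced from 17 libraries of 5 groups, among 68 of the series. The deposited table holds whole-number read counts per gene, made by the authors with HISAT2 2.0.5 and featureCounts 1.5.0-p3 on mm39, per the submitters' processing notes. For the counting options and the annotation release, nothing is given in the sources used here. Gene lengths and coordinates are those of the deposited table.

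After filterByExpr removed low genes and TMM set the scale, edgeR 4.0.16 (R 4.3.3) ran its robust quasi-likelihood test on group means over the 17 liver libraries, with the contrasts Egf 2 h against untreated, vehicle 2 h against untreated and Egf 2 h against vehicle 2 h. Adjusted p under 0.05 (Benjamini-Hochberg over all tested genes) made a call, and SE is the log2 change divided by the root of F. On simulated counts for Egf against untreated (13592 genes), 66, 66 and 68 genes of at least 1 CPM were changed 1.5-, 2- and 4-fold. Of these 22.7%, 62.1% and 97.1% were called in the right direction. No length trend was put in, and far fewer genes were changed than the 3276 called in the data. The cutoff of the adjustment depends on that number, so these shares need not hold for the data. Replicates of a group differed beyond sampling noise (chi-square per degree of freedom 22.2 to 80.2). Counting intervals do not apply to the means given, whose SD is that of the libraries.

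Named were all vehicle calls, the 15 largest rises and falls among calls reaching a mean of 1 CPM, up to 8 genes per class and direction and 4 per list of 22 pathway lists. The members, the rule and the lists were chosen with earlier results of these data known, and list members beyond the 4, the marker genes named and the genes of other tools were chosen after their values were seen. A further list of 15 cell types and tissues held markers. Alternatives were RLE scaling, no filter, DESeq2 1.42.0, limma 3.58.1 voom, the 10 compared libraries alone, a replicate block, a threshold of 0.01, each library left out and, added after the data were seen, a gene length offset and ribosomal RNA genes left out. Promoters came from RefSeq (GRCm38.p6), matched by symbol. The other organs were not used here.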

Additional observations from a re-analysis of the deposited data

Results flagged for a closer look

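Of 128 named or receptor genes tested, 9 had 1 Egf 2 h library so far from the other 3 that its gap, as a share of the group's range, passed Dixon's critical value. Chance alone is expected to single out a small share of such groups, so that several of the 9 may have arisen by chance. Usp2 was at 0.819 CPM in replicate 3, against 0.177 to 0.251 in the others. Mcl1 was at 242 CPM in replicate 4 against 208 to 214, and Srxn1 at 195 CPM in replicate 4 against 107 to 115. Msmo1 was at 418 CPM in replicate 2 against 923 to 989, and Gclc, which encodes the catalytic subunit of glutathione synthesis, at 288 CPM in replicate 2 against 188 to 198. Nr1h4, the bile acid receptor gene, was at 55.9 CPM in replicate 1 against 65.1 to 66.7. Stat5b was at 50.7 CPM in replicate 4 against 47.7 to 48.0. Egfr was at 397 CPM in replicate 3 against 190 to 209, and Erbb4 at 2.12 CPM in replicate 1 against 1.51 to 1.57. No single library held more than 3 of the 9.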

How the results depend on the processing

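Of 124 named genes 107 were called in Egf against untreated, 86 of them in all 19 alternative settings, and no direction of a named call reversed. RLE scaling and the 10 compared libraries alone kept the counts of calls and classes within 1.5 times, as did the gene length offset and leaving out ribosomal RNA genes, both chosen after the data were seen. Counts within lists moved more, and with the 10 libraries 1 of the 3 cancelled genes was still brought back, against 3. Without the filter, 24 genes were lower with vehicle, 27 changes were left and 7 amplified. DESeq2 called 55 genes higher and 96 lower with vehicle, with 8 cancelled, 95 left and 33 amplified. limma voom called 238 and 288, with 27 cancelled, 371 left, 56 amplified and 824 with Egf alone. At an adjusted p under 0.01, Egf against untreated gave 349 higher and 812 lower genes, vehicle 2 and 0, with 1 cancelled, 1 left, 0 amplified and 243 with Egf alone. With a replicate block, 2231 genes were higher with Egf, 47 higher and 64 lower with vehicle, and 5 changes were cancelled, 78 left and 26 amplified. The labels tie no numbers together. Of 9 same-numbered pairs 3 correlated above 0.1 (range -0.0643 to 0.199). Levels were centred within these small groups first, so the correlations cannot decide whether libraries of the same number share more than the number. Leaving out single libraries gave 394 to 1510 genes higher and 876 to 2063 lower with Egf, 1 to 9 higher and 0 to 12 lower with vehicle, 1 to 3 changes cancelled, 0 to 14 left, 0 to 4 amplified and 286 to 470 with Egf alone. The lowest Egf counts came without untreated replicate 3. The cause of these shifts was not tested. Depth limits the genes near 1 CPM, such as Fosl1, Snai3 and Adcy1, where few reads carry the untreated level.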

Other observations

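The genes of the ribosome's own proteins are a list chosen after values were seen. Of 95 tested, 67 were higher and 3 lower in Egf than in untreated liver, with a median log2 change of 0.68, and in vehicle liver the median was 0.52 with 0 called by edgeR. Without untreated replicate 3 only 1 was higher and 1 lower. Without Egf replicate 1 the rises were 18, without Egf replicate 2 they were 20 and without untreated replicate 1 they were 25. With the offset for gene length 48 were higher and the median was 0.49. The part of gene length and of untreated replicate 3 in these calls was not tested.

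Transcription factor genes made up 6.44% of all tested genes, 12.1% of the genes raised by Egf alone and 11.7% of those lowered by Egf alone. Among genes called against untreated only, the shares were 4.74% of the higher and 9.26% of the lower genes. Pseudogenes made up 4.51% of all tested genes, 5.44% of the higher and 0.307% of the lower ones.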
